A study of Homo sapiens with 9 samples.

Results

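The genes described here are the nuclear-encoded subunits of mitochondrial complex I and the assembly factors that carry an NDUFAF name. The family was chosen with earlier results of these data known. From the same libraries, the study reported that genes differing with LINC00996 centred on energy metabolism, NADH dehydrogenation included. The counts below are therefore not an independent finding. Members were picked by name, as protein-coding rows of the count table whose symbol starts with NDUFA, NDUFB, NDUFC, NDUFS or NDUFV, leaving out 1 readthrough gene with a hyphenated name. This gave 47 genes, 39 named as subunits and 8 as assembly factors, of 58735 genes in the table. The study transfected A549, an established human lung adenocarcinoma cell line, with plasmids by means of the reagent jetPRIME and sequenced poly(A)-selected RNA. The control group, titled PC3, had received control plasmids whose treatment labels read PC3.1, PC3.2 and PC3.3, whereas the study's text names PC3.1 alone. The LINC00996 group, titled L996, overexpressed the long non-coding RNA LINC00996, and the AP001189.3 group, titled RP11, overexpressed the long non-coding RNA AP001189.3. All 3 groups thus came from 1 cell line and had been transfected, and each held 3 libraries. The study's text says that extraction was done in triplicate. Its supplementary methods speak of biological replicates, in a number other than 3 per condition, and also describe a procedure without them. Neither names separate cultures for the libraries of a group. The p-values therefore measure only the spread between these libraries, which may be technical.

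Complex I, or NADH:ubiquinone oxidoreductase, is the entry point of electrons from NADH into the respiratory chain. Its matrix arm carries the flavin and the iron-sulfur clusters, and its membrane arm pumps protons. Part of the membrane arm is made inside the mitochondrion from mitochondrial DNA, while the subunits described here are made in the cytosol and imported. Core subunits carry out catalysis, accessory subunits surround and stabilise them, and assembly factors help to join the parts without staying in the finished enzyme.

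Sequences upstream of 4 of the genes are shown because these genes moved in different directions. Each stretch is the longest run, within 250 bases before the RefSeq start, that overlapped no annotated exon of GENCODE 29. That of NDUFV2 was thus cut to 181 bases and ends 69 before the start. That of NDUFB6 was cut to 225 and ends 25 before it. NDUFB6 and NDUFC1 were higher with LINC00996, NDUFV2 was lower with LINC00996, and NDUFAF4 was lower with AP001189.3. The sequences come from RefSeq, build GRCh38.p14, run 5′ to 3′ on the strand of the gene, and show a CCGGAAG motif, on either strand, in capitals.
NDUFB6, chr9:32573185-32573409, minus strand: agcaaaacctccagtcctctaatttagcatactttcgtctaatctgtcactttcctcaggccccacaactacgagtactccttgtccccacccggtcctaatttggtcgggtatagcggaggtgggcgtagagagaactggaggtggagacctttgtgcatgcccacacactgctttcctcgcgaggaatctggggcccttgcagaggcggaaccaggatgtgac
NDUFC1, chr4:139302552-139302801, minus strand: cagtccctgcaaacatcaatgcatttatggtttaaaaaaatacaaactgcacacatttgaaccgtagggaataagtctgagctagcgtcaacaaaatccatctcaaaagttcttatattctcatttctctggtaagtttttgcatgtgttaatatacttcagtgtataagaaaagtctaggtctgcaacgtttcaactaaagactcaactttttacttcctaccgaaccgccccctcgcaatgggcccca
NDUFV2, chr18:9102449-9102629, plus strand: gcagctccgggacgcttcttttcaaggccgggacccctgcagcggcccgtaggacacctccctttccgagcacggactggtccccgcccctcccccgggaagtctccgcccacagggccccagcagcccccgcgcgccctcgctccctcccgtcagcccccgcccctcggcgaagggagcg
NDUFAF4, chr6:96897892-96898141, minus strand: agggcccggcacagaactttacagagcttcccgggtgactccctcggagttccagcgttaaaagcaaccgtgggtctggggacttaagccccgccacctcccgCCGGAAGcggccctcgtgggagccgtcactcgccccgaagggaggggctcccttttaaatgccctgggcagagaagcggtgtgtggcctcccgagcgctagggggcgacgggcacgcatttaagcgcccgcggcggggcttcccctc

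These stretches differed in base composition, with 38.8% G and C in NDUFC1, 54.2% in NDUFB6, 67.2% in NDUFAF4 and 75.1% in NDUFV2. Promoters of nuclear genes of the respiratory chain are known for sites of NRF1, of ETS factors such as GABP and of YY1, so 3 motifs were searched on both strands of windows of 300 bases, from 250 before to 50 after the RefSeq start. None of the motifs contains another. A RefSeq promoter was matched by symbol for 39 of the 47 genes. GCGCATGC, an NRF1 motif, was in 7 of the 39 windows (17.95%) and in 3.27% of all 27305 promoters. CCGGAAG, an ETS motif, was in 6 windows (15.38%) against 10.67%, and AAGATGGC, a YY1 motif, was in 6 (15.38%) against 3.03%. Any of the 3 motifs was in 41.03% of the 39 windows and in 15.55% of all promoters. Of the 14 matched genes that were called higher with LINC00996, 3 held a motif (NDUFA1, NDUFA9 and NDUFS6), or 21.43%, and 13 of the other 25 did, or 52.0%. A match describes letters and not binding.

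Counts per library summed to between 15272450 and 18125447. LINC00996 had 4 to 9 counts in libraries without its plasmid and 4373 to 5952 with it, and AP001189.3 had 0 to 2 and 1660 to 2378, in the direction of the labels. The unit of level is the CPM, a count brought to a common library size with TMM factors. The epithelial keratin KRT8 stood at 3891 to 4109 CPM in the control libraries, 4311 to 6119 with LINC00996 and 4495 to 4620 with AP001189.3, and KRT18 at 2198 to 2224, 2243 to 2544 and 2361 to 2379, both above control in every overexpression library and highest in LINC00996 replicate 1. The leukocyte markers PTPRC and CD3E stayed at or below 0.249 CPM and the alveolar markers NKX2-1 and SFTPC at or below 0.364. Other markers also moved with the group. The epithelial cadherin CDH1 stood at 161.6 to 181.8 CPM with LINC00996 and 280.5 to 321.9 in the other libraries, the endothelial marker PECAM1 at 2.47 to 3.49 and 4.13 to 8.66, and the collagen gene COL1A1 at 11.9 to 15.1 and 18.3 to 22.6. The oxidoreductase genes NQO1 and AKR1B10, abundant in A549, were higher in all LINC00996 libraries, at 1302 to 1331 against 925.6 to 991.8 CPM and at 1358 to 1382 against 652.9 to 748.3. The epithelial marker EPCAM, at 15.2 to 17.5 CPM with LINC00996, lay above the control range of 12.8 to 13.9 and overlapped the AP001189.3 libraries. The part of these genes in the results below was not tested. LINC00996 replicate 1 stood apart, with a chi-square value per gene of 20.1 and 29.7 against the other libraries of its group, where all other pairs within a group gave 2.21 to 6.70. It held the highest level of 35 of the 47 genes, so the counts over the 47 genes and most single values that rest on the LINC00996 group are given with and without it. In bulk RNA, fewer cells that express a gene and less of its RNA per cell cannot be told apart.

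Levels of different genes were compared as CPM per kilobase of the deposited gene length, which counts all annotated exon bases. In the control group the subunits had a median of 8.52 CPM per kilobase, and the assembly factors had 5.10, with a range of 1.41 to 9.97. The highest was NDUFS5, a small accessory subunit, at 91.8 ± 9.14 CPM per kilobase (SD, n = 3), followed by NDUFB11 at 50.5 ± 3.85. NDUFB7 at 37.8 ± 2.99 and the acyl carrier protein NDUFAB1 at 34.3 ± 4.76 came next and did not differ beyond their spread. The lowest were NDUFA13 at 0.679 ± 0.193, NDUFA7 at 0.314 ± 0.191 and NDUFA4L2 at 0.177 ± 0.00844. Per kilobase of the principal transcript the order was another, led by the core subunit NDUFS8 at 96.7 CPM per kilobase in the control group.

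Some of the genes share sequence with others, and whether the counting used strand is not given in the sources used here, so their values are uncertain. NDUFA1 shared 44.5% of its exon bases with RNF113A on the opposite strand, which had 167 to 237 counts per library and a log2 fold change of 0.12 with LINC00996 against control (adjusted p = 0.577). NDUFB3 shared 19.8% with FAM126B on the opposite strand, which had -0.35 (adjusted p = 0.18). NDUFB8 had 34 to 193 counts and shared 33.8% with AL133352.1 on its own strand, and NDUFA7 had 4 to 21 counts and shared 32.3% with AC010323.1. NDUFV2 shared 28.4% with AP005263.1 on its own strand. NDUFA13, among the lowest genes above, had 21 to 43 counts and shared 20.97% with other genes on its own strand, mostly AC011448.1. Its low level is therefore uncertain as well. NDUFB11 shared 44.9% with RBM10 on the opposite strand, which had 915 to 1332 counts, and 49.1% of the exon bases of NDUFS7 lay under other genes on the opposite strand. Among partners on the opposite strand that were themselves called, MTSS1 shared 16.5% of NDUFB9 and had a log2 difference of -1.06 with LINC00996 against control (adjusted p = 0.000827), BRAF shared 27.9% of NDUFB2 and had -0.47 (adjusted p = 0.0273), and RBM10 had 0.18 with AP001189.3 (adjusted p = 0.047). Counts on annotated pseudogene copies came to 14.15% of the gene's own for NDUFV2, 11.23% for NDUFB8 and at most 1.86% for the other 17 genes with such copies.

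Of the 39 subunit genes, 16 were higher in A549 with LINC00996 than with the control plasmid, 1 was lower and 22 did not pass the test. A gene was called when its p from edgeR's quasi-likelihood test, adjusted by Benjamini-Hochberg over all genes tested, was under 0.05. The subunits called higher made up 41.0% of all 39, against 10.7% higher and 11.6% lower among the 16097 genes tested. The genes tested include genes that are not protein-coding, unlike the 39. Among protein-coding genes alone, the share called higher fell from 23.66% in the shortest to 5.527% in the longest of 10 bins by gene length. Of the 8 assembly factors 1 was called higher and 0 lower, with 1 lower at an unadjusted p under 0.05 and 0 lower by DESeq2. The median difference on the log2 scale was 0.42 over the subunits and 0.23 over the assembly factors, beside 0.01 over all genes.

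Without LINC00996 replicate 1, 17 subunits were called higher and 1 lower, and 1 assembly factor was called higher, against 15.9% higher and 17.3% lower among 16508 genes. The medians were then 0.25 for the subunits and 0.14 for the assembly factors. NDUFB10 was no longer called (adjusted p = 0.0555), and the core subunit NDUFS1 was among those newly called. Leaving out a control library gave fewer calls, with 8, 6 and 6 subunits higher for replicates 1, 2 and 3, where the shares of all genes called higher also fell, to 5.59%, 4.84% and 5.52%. The subunit medians were then 0.36, 0.41 and 0.46. In every fit that left out 1 library, 6 genes stayed called, namely NDUFA1, NDUFB3, NDUFB6, NDUFC1, NDUFV1 and the assembly factor NDUFAF2. How many of all called genes did so was not counted.

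**Figure D1:**
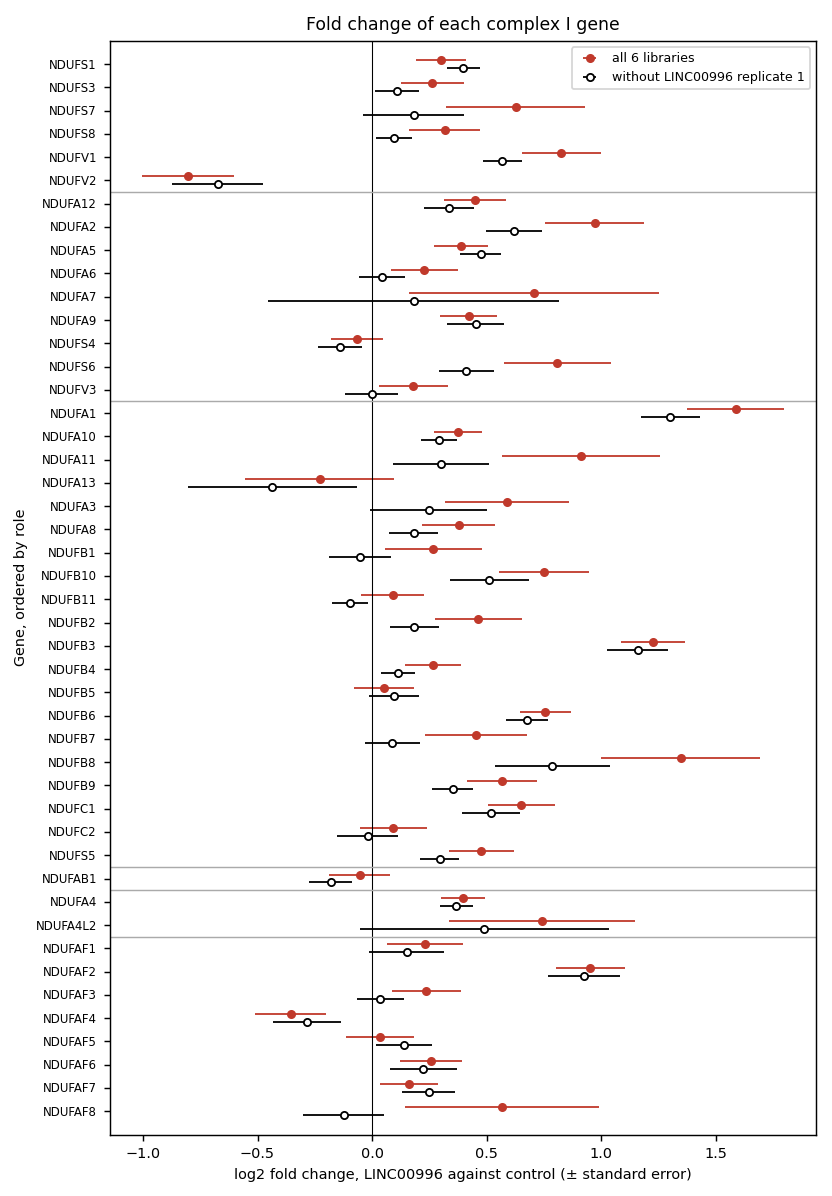
Log2 fold change with LINC00996 against control of the genes, all but 1 of them drawn, by role, with all 6 libraries and without LINC00996 replicate 1 (points with standard errors). Without that library the median subunit moved from 0.42 to 0.25, while NDUFA1 stood at 1.30, NDUFB3 at 1.16 and NDUFV2 at -0.67.

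Among the core catalytic subunits, 1 was called higher and 1 lower, near the 10.7% and 11.6% of all genes, with a median of 0.30, and of 0.18 without replicate 1. NDUFV1, which binds NADH and the flavin, stood at 42.5, 48.9 and 48.8 CPM in the control libraries, 110, 74.95 and 63.8 with LINC00996 and 60.8, 54.8 and 57.05 with AP001189.3. The control values lay below all others, and LINC00996 replicate 1 was the highest. The difference with LINC00996 was 0.83 on the log2 scale (SE 0.17, adjusted p = 0.00485), and 0.57 without replicate 1. NDUFV2, the iron-sulfur partner of NDUFV1, moved the other way and stood at 8.42, 6.05 and 7.26 CPM in the control libraries, 3.399, 4.002 and 5.04 with LINC00996 and 6.92, 6.51 and 7.59 with AP001189.3. Every LINC00996 library lay below every other library. Its difference was -0.80 (SE 0.20, adjusted p = 0.0139), and -0.67 without replicate 1. The call was lost without control replicate 1 and without control replicate 3, and NDUFV2 was the only gene of the 47 called lower with LINC00996 against control.

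Further core subunits were not called with all libraries. NDUFS1, the largest iron-sulfur subunit, had a log2 difference of 0.30 (adjusted p = 0.067), and 0.40 without replicate 1 (adjusted p = 5.64e-05). Its lowest LINC00996 value, 76.3 CPM, was in replicate 1, against 90.3 and 98.3 in the others. NDUFS3, NDUFS7 and NDUFS8, which carry or lie beside the clusters that lead to quinone, had 0.26, 0.63 and 0.32, and 0.11, 0.18 and 0.10 without replicate 1.

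**Figure D2:**
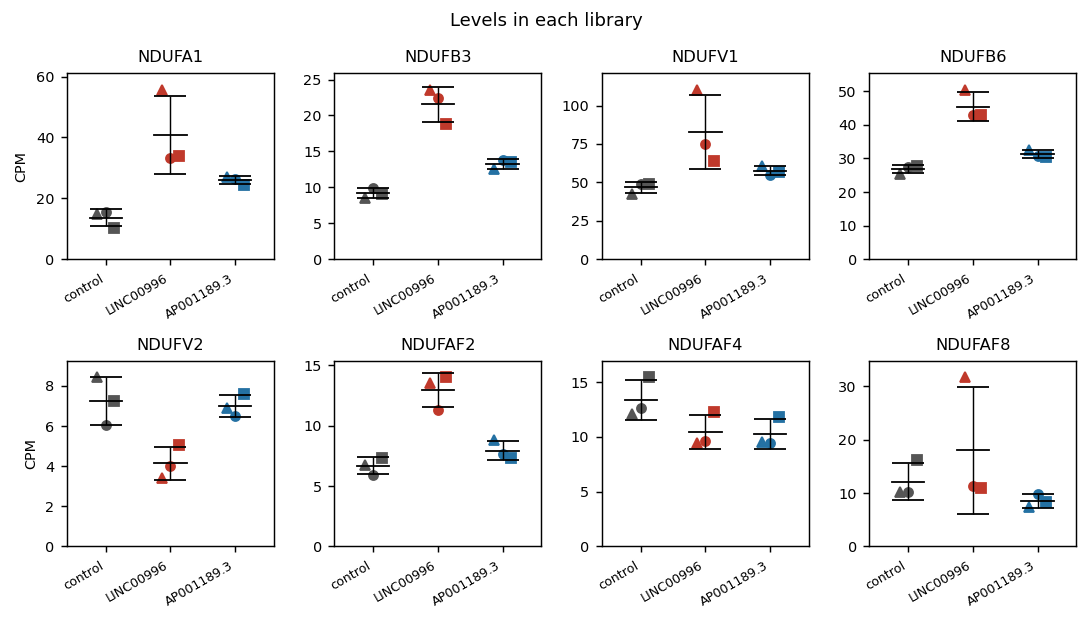
CPM of 8 genes (vertical axis, from 0) in the 9 libraries by group, with triangles, circles and squares for replicates 1, 2 and 3 and bars for mean and SD. NDUFB3 and NDUFB6 lay higher and NDUFV2 lower in the LINC00996 libraries than in both other groups, and NDUFAF8 reached 31.7 CPM in LINC00996 replicate 1.

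Of the 9 accessory subunits of the matrix arm, 5 were called higher and none lower by edgeR, beside the 10.7% and 11.6% of all genes, with a median log2 difference of 0.42, and of 0.34 without replicate 1. NDUFA2, a small subunit with a thioredoxin-like fold, stood at 14.02, 14.7 and 12.2 CPM in the control libraries, 38.3, 21.4 and 20.4 with LINC00996 and 16.3, 14.7 and 13.4 with AP001189.3. All LINC00996 values lay above all others, and replicate 1 was far above the other 2 of its group. The difference was 0.97 (SE 0.22, adjusted p = 0.0077), and 0.62 without replicate 1. NDUFS6, which carries a zinc ion, had 0.81 (adjusted p = 0.0277), and 0.41 without replicate 1. NDUFA12, NDUFA9 and NDUFA5 were also called higher, at 0.45, 0.42 and 0.39, and at 0.34, 0.45 and 0.47 without replicate 1. The calls of NDUFA12, NDUFA9, NDUFA5 and NDUFS6 were each lost without any 1 of the 3 control libraries, those of NDUFA9 and NDUFA5 also without LINC00996 replicate 2, and that of NDUFA5 also without LINC00996 replicate 3. The call of NDUFA2 was lost without control replicate 3. NDUFS4, a gene often mutated in complex I deficiency, had -0.07 (adjusted p = 0.718). NDUFA6, NDUFV3 and the sparsely counted NDUFA7 had 0.23, 0.18 and 0.71 and were not called, and without replicate 1 they had 0.04, -0.0015 and 0.18.

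With all libraries the 3 largest differences among the 47 genes were in the membrane arm, in NDUFA1, NDUFB8 and NDUFB3, whereas without replicate 1 the assembly factor NDUFAF2, at 0.92, stood above NDUFB8, at 0.79. Of its 20 accessory subunits 9 were called higher and none lower by edgeR, beside the same shares of all genes, with a median of 0.47, and of 0.27 without replicate 1. NDUFA1 (chromosome X, 119871487 to 119876662 in GRCh38), a small subunit with a single membrane span, stood at 14.9, 15.6 and 10.4 CPM in the control libraries, 55.5, 33.3 and 33.8 with LINC00996 and 26.98, 26.2 and 24.4 with AP001189.3. The 3 groups did not overlap. Its log2 difference was 1.59 (SE 0.21, adjusted p = 0.000324), and 1.30 without replicate 1. NDUFB3, a small membrane subunit, stood at 8.54, 9.97 and 9.1 CPM in the control libraries, 23.5, 22.4 and 18.8 with LINC00996 and 12.5, 13.7 and 13.5 with AP001189.3. These groups did not overlap either, and replicate 1 was close to replicate 2. Its difference was 1.23 (SE 0.14, adjusted p = 9.82e-05), and 1.16 without replicate 1.

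NDUFB6, another small membrane subunit, whose upstream sequence is printed above, stood at 25.4, 27.4 and 27.6 CPM in the control libraries, 50.3, 42.8 and 42.9 with LINC00996 and 32.5, 30.6 and 30.4 with AP001189.3. The LINC00996 values lay above all others. Its log2 difference was 0.76 (SE 0.11, adjusted p = 0.000629), and 0.68 without replicate 1. NDUFC1, also printed above, stood at 11.96, 12.96 and 13.8 CPM in the control libraries, 23.9, 20.1 and 17.01 with LINC00996 and 18.6, 17.2 and 15.7 with AP001189.3. Both overexpression groups lay above the control libraries and overlapped each other. Its difference was 0.65 (adjusted p = 0.00832), and 0.52 without replicate 1.

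For NDUFB8, NDUFB10 and NDUFB9, too, replicate 1 was the highest library, and the difference was smaller without it. NDUFB8 stood at 2.83, 2.12 and 2.65 CPM in the control libraries, 10.6, 3.62 and 5.09 with LINC00996 and 2.96, 2.93 and 3.94 with AP001189.3. Its log2 difference was 1.35 (SE 0.35, adjusted p = 0.0157), and 0.79 without replicate 1. NDUFB10 stood at 37.9, 32.4 and 23.8 CPM in the control libraries, 68.8, 47.3 and 42.1 with LINC00996 and 45.1, 42.5 and 44.9 with AP001189.3. Its LINC00996 values lay above the control values and overlapped those with AP001189.3. The difference was 0.75 (adjusted p = 0.0171), and 0.51 without replicate 1. NDUFB9 stood at 33.98, 34.1 and 36.9 CPM in the control libraries, 66.2, 47.5 and 41.9 with LINC00996 and 35.7, 36.5 and 33.3 with AP001189.3. Here the LINC00996 values lay above all others, with a difference of 0.57 (adjusted p = 0.0197), and of 0.35 without replicate 1. NDUFA10 and NDUFS5 were also called higher, at 0.37 and 0.48, and at 0.29 and 0.30 without replicate 1. Both calls were lost without any 1 of the 3 control libraries and without LINC00996 replicate 2, and that of NDUFB9 without any 1 of the control libraries. The calls of NDUFB8 and NDUFB10 were lost without control replicate 2 and without control replicate 3, and that of NDUFB10 also without LINC00996 replicate 1. Not called were the other 11, among them NDUFA11 at 0.91 (adjusted p = 0.0816), which had 0.30 without replicate 1, NDUFB7 with 0.45 and 0.09, and NDUFA13, known also as GRIM-19, with -0.23 and -0.44.

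NDUFAB1, the acyl carrier protein that also serves fatty acid and iron-sulfur cluster synthesis, had a log2 difference of -0.05 with LINC00996 (adjusted p = 0.81). NDUFA4 and NDUFA4L2 carry a complex I name, but NDUFA4 is now known as a subunit of cytochrome c oxidase, and NDUFA4L2 is its hypoxia-induced relative. NDUFA4 stood at 76.6, 78.3 and 88.1 CPM in the control libraries, 111, 105 and 104 with LINC00996 and 78.03, 71.2 and 76.4 with AP001189.3. The LINC00996 values lay close together and above all others, with a difference of 0.40 (SE 0.10, adjusted p = 0.0113), and of 0.37 without replicate 1. The call was lost without control replicate 1 and without control replicate 2. NDUFA4L2 stood at 0.471, 0.499 and 0.518 CPM in the control libraries, 1.097, 0.635 and 0.758 with LINC00996 and 1.06, 1.63 and 0.9104 with AP001189.3, with 8 to 25 counts per library. The control values lay below all others, and the gene passed the filter on low counts only through the libraries of the overexpression group, so the sign of its difference of 0.74 (adjusted p = 0.217) followed from the filter. Without both genes, 15 of 37 subunits were called higher and the median was 0.42.

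**Figure D3:**
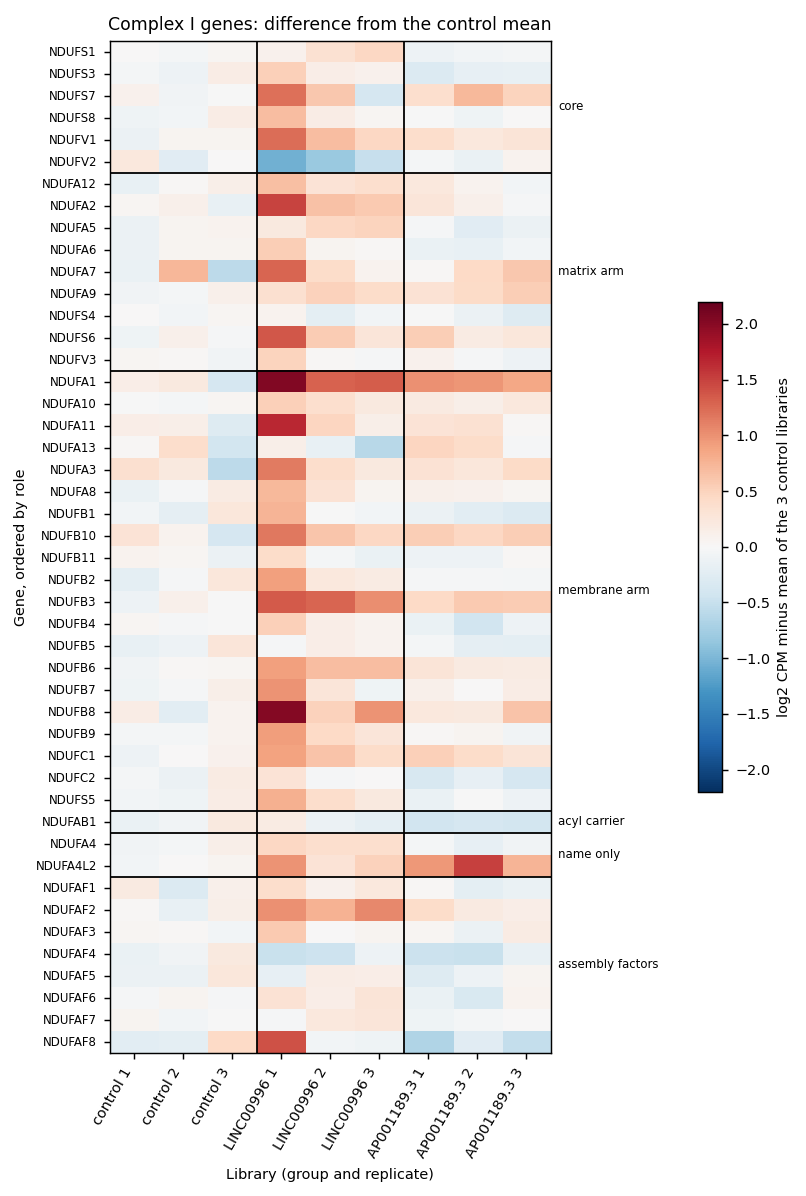
Log2 CPM of the genes, all but 1 of them drawn (vertical axis, by role), in the 9 libraries (columns), minus the mean of the 3 control libraries, with colour for the size and sign of the difference. LINC00996 replicate 1 was the highest of its group for 38 of the 47 genes, and NDUFV2 and NDUFAF4 lay below the control mean in all 3 LINC00996 libraries.

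Among the assembly factors, NDUFAF2 was the gene called with LINC00996. NDUFAF2 is a paralog of NDUFA12 that binds a late assembly intermediate, and it stood at 6.77, 5.92 and 7.32 CPM in the control libraries, 13.5, 11.3 and 13.98 with LINC00996 and 8.81, 7.62 and 7.34 with AP001189.3. The LINC00996 values lay above all others, and replicate 1 was in the middle of its group. The log2 difference was 0.95 (SE 0.15, adjusted p = 0.00104), and 0.92 without replicate 1. NDUFAF8, a partner of NDUFAF5, stood at 10.1, 10.2 and 16.2 CPM in the control libraries, 31.7, 11.3 and 11.1 with LINC00996 and 7.45, 9.899 and 8.26 with AP001189.3. Replicate 1 alone was high. Its difference of 0.57 (SE 0.42, adjusted p = 0.386) became -0.12 without that library. NDUFAF4, a partner of NDUFAF3 in early assembly, stood at 12.1, 12.7 and 15.4 CPM in the control libraries, 9.48, 9.65 and 12.2 with LINC00996 and 9.58, 9.44 and 11.8 with AP001189.3. Its difference was -0.36 (adjusted p = 0.127), or -0.29 without replicate 1, and the LINC00996 and control values overlapped narrowly.

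The other 5 assembly factors were not called. NDUFAF1, a member of the assembly complex of the membrane arm, stood at 10.01, 7.04 and 9.45 CPM in the control libraries, 11.5, 9.34 and 10.3 with LINC00996 and 8.87, 7.49 and 7.89 with AP001189.3. NDUFAF3 stood at 24.97, 24.6 and 23.3 CPM in the control libraries, 36.1, 24.5 and 25.2 with LINC00996 and 24.9, 22.2 and 27.4 with AP001189.3. NDUFAF5, which modifies NDUFS7, stood at 16.6, 16.6 and 21.5 CPM in the control libraries, 16.01, 20.3 and 19.9 with LINC00996 and 14.8, 16.7 and 18.9 with AP001189.3. In these 3 genes the LINC00996 values overlapped the control values. NDUFAF6 stood at 8.84, 9.35 and 8.87 CPM in the control libraries, 11.3, 10.04 and 11 with LINC00996 and 8.11, 7.16 and 9.47 with AP001189.3. NDUFAF7, a methyltransferase of the mitochondrial matrix, stood at 17.1, 15.9 and 16.5 CPM in the control libraries, 16.3, 19.4 and 19.8 with LINC00996 and 15.5, 15.96 and 16.5 with AP001189.3. The LINC00996 values lay above the control values for NDUFAF6 and overlapped them for NDUFAF7. The log2 differences of these 5 genes lay between 0.04 and 0.26, or between 0.04 and 0.25 without replicate 1. With all libraries none was called by edgeR or had an unadjusted p under 0.05.

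The genes range in length from NDUFB7, at 531 bases, to NDUFS1, at 12268, and were split at their median of 2475 bases into 24 short and 23 long genes. With LINC00996, 11 short genes were called higher, and 6 long genes higher and 1 lower. Of all genes tested, 14.5% of those up to that length and 9.64% of those over it were called higher. Among protein-coding genes alone, the share was 23.66% at 207 to 2190 bases, 16.22% at 2191 to 2951 and 5.527% from 10758 bases. The median log2 difference was 0.52 over the short genes and 0.30 over the long ones, beside 0.13 and -0.01 over all genes tested of these lengths. Among the short genes the 20 subunits had a median of 0.53 and the 4 assembly factors 0.40. Among the long genes the 19 subunits had 0.37 and the 4 assembly factors 0.10.

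The size of the gap between short and long genes depended on LINC00996 replicate 1. Without it the medians were 0.21 for the short and 0.20 for the long genes, with 10 and 8 called higher, against 15% and 16.1% of all genes tested of these lengths. Among protein-coding genes alone, calls still went with length without that library. They were 24.28% higher at 207 to 2176 bases and 12.62% from 10753 bases. The 12 shortest and the 12 longest genes had medians of 0.64 and 0.35 with all libraries, and of 0.24 and 0.26 without replicate 1. Split by the principal transcript, at 1039 bases, the medians were 0.52 and 0.26 with all libraries, and 0.18 and 0.22 without replicate 1. Subunits kept a higher median than assembly factors among the short genes without replicate 1, at 0.27 against 0.09, and among the long genes the values were 0.20 and 0.18. These differences between sets are descriptions and were not tested.

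**Figure D4:**
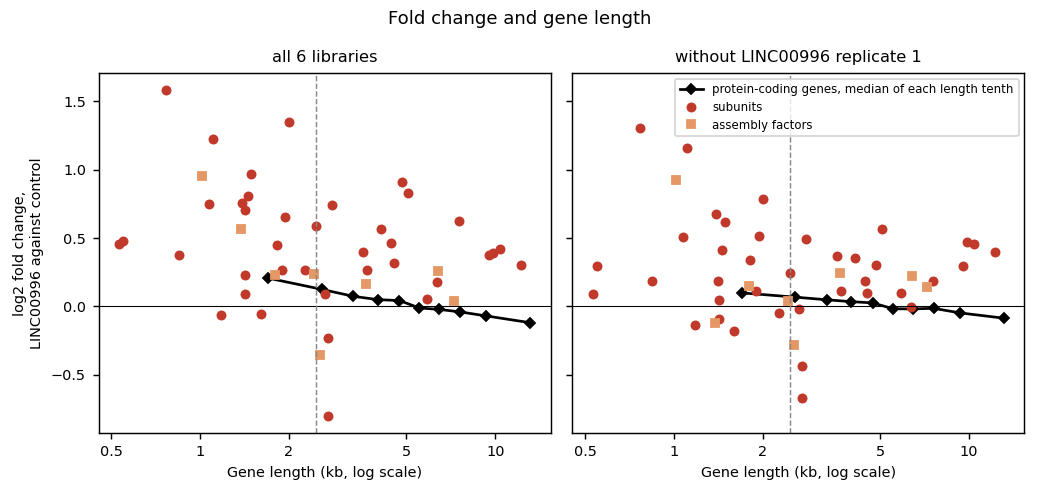
Log2 fold change with LINC00996 against control (vertical axis) and gene length (horizontal axis, log scale) for the genes, all but 1 of them drawn, with all 6 libraries and without LINC00996 replicate 1. Black diamonds are medians of protein-coding genes in bins of about equal size by length, and the dashed line marks 2475 bases.

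Among protein-coding genes in general, too, short genes had the higher differences with LINC00996. Protein-coding genes in the bin of shortest genes had a median log2 difference of 0.21 and those in the bin of longest genes -0.12, and without replicate 1 these were 0.10 and -0.09. With an offset for gene length in each library, 15 subunits were called higher, against 11.9% of all genes, with a median of 0.40, and the short and long genes had medians of 0.40 and 0.32. On the log2 scale the median subunit stood 0.706, 0.335 and 0.172 above the control mean in LINC00996 replicates 1, 2 and 3. The median assembly factor stood 0.358, 0.124 and 0.186 above it.

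**Figure D5:**
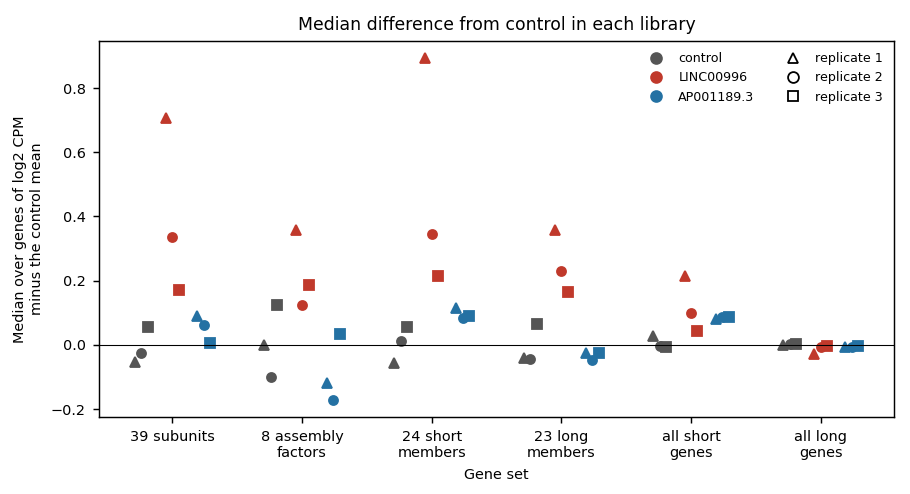
Median over each set of genes (horizontal axis) of log2 CPM minus the control mean (vertical axis) in each library, with colours for groups, symbols for replicates and the split at 2475 bases. The short genes reached 0.89 in LINC00996 replicate 1 and the long genes 0.36, and in replicate 3 they stood at 0.21 and 0.17.

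The comparison of AP001189.3 with control used the same control libraries. Of 38 subunits tested 10 were called higher and 2 lower, against 11.4% higher and 8.49% lower among 16023 genes, and NDUFA7 did not pass the filter on low counts. Without NDUFA4 and NDUFA4L2, 9 subunits were called higher and 2 lower. Of the assembly factors 2 were called lower and 0 higher, with 0 higher at an unadjusted p under 0.05 as well. The medians were 0.04 for the subunits and -0.12 for the assembly factors. With all 9 libraries in 1 fit, 2 subunits were called higher, NDUFA1 and NDUFB3, against 2.08% of all genes, and 0 of the 47 genes lower. DESeq2 called 7 subunits higher and 1 lower, and 0 assembly factors, against 8.51% higher and 6.12% lower among the 16196 genes to which it gave an adjusted p.

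NDUFA1 had the smallest adjusted p here, with a log2 difference of 0.93 (SE 0.12, adjusted p = 5.28e-06). NDUFB3 had 0.53 (adjusted p = 0.00294) and NDUFV1 0.30 (adjusted p = 0.00361). NDUFAB1 stood at 49.5, 51.4 and 63.5 CPM in the control libraries, 61.6, 49.9 and 46.9 with LINC00996 and 40.6, 42.2 and 41.3 with AP001189.3. The AP001189.3 values lay below all others, with a difference from control of -0.41 (SE 0.08, adjusted p = 0.000824). NDUFA1, NDUFAB1, NDUFB3 and NDUFV1 stayed called in every fit that left out 1 library. NDUFS7, an iron-sulfur core subunit, stood at 8.599, 7.67 and 8.01 CPM in the control libraries, 18.97, 12.3 and 6.23 with LINC00996 and 10.5, 13.3 and 11.3 with AP001189.3. The AP001189.3 values lay above the control values, and the LINC00996 values spread on both sides of them. Its difference with AP001189.3 was 0.53 (adjusted p = 0.00496), a call lost without AP001189.3 replicate 2. NDUFA9, which binds NADPH, stood at 12.6, 12.8 and 14.4 CPM in the control libraries, 17, 18.9 and 17.5 with LINC00996 and 16.6, 17.7 and 19.4 with AP001189.3. Both overexpression groups lay above control, at 0.43 with AP001189.3 (adjusted p = 0.00617) and 0.42 with LINC00996, and the former call was lost without AP001189.3 replicate 3.

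NDUFC1, NDUFB10, NDUFS6 and NDUFA10 were also called higher with AP001189.3, at 0.41, 0.50, 0.33 and 0.19, and NDUFB4 lower, at -0.22. Of the 6 fits that left out 1 library, NDUFC1 stayed called in 5, NDUFS6 and NDUFB4 in 3, NDUFB10 in 2 and NDUFA10 in 1. The call was lost without AP001189.3 replicate 1 for NDUFC1, NDUFS6, NDUFB10 and NDUFA10, without AP001189.3 replicate 2 for NDUFB4, NDUFB10 and NDUFA10, and without AP001189.3 replicate 3 for NDUFB10 and NDUFA10. It was lost without control replicate 1 for NDUFS6, NDUFB4 and NDUFA10, without control replicate 2 for NDUFB4, NDUFB10 and NDUFA10, and without control replicate 3 for NDUFS6. NDUFA4L2 was called higher at 1.26 (SE 0.42, adjusted p = 0.0364), but it had 8 to 9 counts in the control libraries and passed the filter only through the AP001189.3 libraries. Its call was lost without any 1 of the control libraries and without AP001189.3 replicate 1 or replicate 2. The assembly factors called lower were NDUFAF4, at -0.38 (adjusted p = 0.0388), and NDUFAF8, at -0.52 (adjusted p = 0.0406). Both calls were lost without AP001189.3 replicate 1, without control replicate 3 and by DESeq2, that of NDUFAF4 also without AP001189.3 replicate 2 or control replicate 2, and that of NDUFAF8 also without AP001189.3 replicate 3. Short genes had a median of 0.08 and long genes -0.05, beside 0.07 and -0.01 for all genes tested of these lengths. With the offset for gene length, 7 subunits were called higher and 6 lower, against 9.64% and 9.04% of all genes. Without AP001189.3 replicate 1 and replicate 2 the subunits called higher numbered 5 and 6, against 8.83% and 7.51% of all genes.

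In the direct comparison of both overexpression groups, 14 subunits were called higher with LINC00996 than with AP001189.3 and 1 lower, against 9.38% higher and 12.1% lower among 16095 genes. Of the assembly factors 1 was called higher. The medians were 0.36 for the subunits and 0.28 for the assembly factors, and 0.37 for the short and 0.30 for the long genes. Without LINC00996 replicate 1, 17 of 38 subunits and 3 of 8 assembly factors were called higher and 1 subunit lower, against 20.3% and 21.3% of 16410 genes. The medians were then 0.21 and 0.29, and 0.23 for the short and 0.26 for the long genes. Leaving out any AP001189.3 library gave 4 subunits called higher, with NDUFA4, NDUFB3 and NDUFB6 among them each time, where 3.62%, 4.15% and 3.93% of all genes were called higher without replicates 1, 2 and 3. Leaving out LINC00996 replicate 3 gave 22, against 8.68%.

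NDUFA4 had the smallest adjusted p in this comparison, with 0.50 on the log2 scale (SE 0.09, adjusted p = 0.00207). NDUFB3, NDUFB6 and NDUFAF2 followed at 0.70, 0.53 and 0.70. NDUFA5, an accessory subunit of the matrix arm, stood at 29.3, 33.4 and 34.1 CPM in the control libraries, 37.3, 44.1 and 45.5 with LINC00996 and 31.6, 27.1 and 29.3 with AP001189.3. Its LINC00996 values lay above all others, with the lowest in replicate 1, and the difference from AP001189.3 was 0.52 (adjusted p = 0.00832), or 0.61 without replicate 1. That call was lost without AP001189.3 replicate 2. NDUFS5 stood at 48.1, 46.8 and 56.04 CPM in the control libraries, 86.6, 65.5 and 58.1 with LINC00996 and 45.1, 49.9 and 46.4 with AP001189.3. Its LINC00996 values also lay above all others, with the highest in replicate 1, and the difference was 0.57 (adjusted p = 0.0118), or 0.39 without it. Its call was lost without AP001189.3 replicate 1 and without AP001189.3 replicate 3. NDUFV2 was again the gene called lower, at -0.76 (adjusted p = 0.0131), a call lost without LINC00996 replicate 2, AP001189.3 replicate 1 or AP001189.3 replicate 3.

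Other genes of the pathway were taken from lists chosen by function. Their counts stand beside the shares of all genes called higher, which were 10.7% with LINC00996, 15.9% without replicate 1 and 11.4% with AP001189.3. The shares called lower were 11.6%, 17.3% and 8.49%. Of the 7 mitochondrially encoded subunits of complex I, 4 were called higher with LINC00996 and none lower, with a median log2 difference of 0.25, and 3 were called without replicate 1. MT-ND3, MT-ND2 and MT-ND6 had 0.96, 0.38 and 0.44. With AP001189.3, 1 of the 7 was called higher and 1 lower, MT-ND4L at -0.58. Of 12 other assembly proteins of complex I, 5 were called higher with LINC00996, with a median of 0.34, 6 without replicate 1 and 1 with AP001189.3. AIFM1, which takes part in the import of small mitochondrial proteins, had 0.76 with LINC00996, NUBPL, which delivers iron-sulfur clusters to complex I, had 0.99, and ACAD9 had 0.55. Of 13 genes tested for iron-sulfur cluster synthesis, 2 were called higher, GLRX5 at 0.64 and IBA57 at 0.58, and BOLA3, at 0.36, was not called. This count is near the share of all genes, and 3 were called higher and 1 lower without replicate 1.

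The other complexes of the chain also held genes called higher with LINC00996, and none called lower, beside the same 10.7% of all genes called higher. Complex II had 4 of 8 (SDHC 0.54, SDHAF3 0.60, SDHA 0.38), and complex III had 4 of 9 (UQCRB 1.01, UQCRH 1.14, UQCR10 0.68). Complex IV had 7 of 10 (COX6A1 2.06, COX6C 0.62, COX8A 1.48), and ATP synthase had 11 of 17 (ATP5MC1 1.07, ATP5MF 2.06, ATP5MC3 0.81). Without replicate 1, where the share of all genes was 15.9%, the genes called higher numbered 4, 4, 8 and 10, and 1 gene of complex II was called lower. With AP001189.3, where it was 11.4%, they numbered 1, 4, 5 and 4, with 1, 1 and 2 lower in complexes III and IV and ATP synthase. Of 13 genes for transcription of mitochondrial genes 0 were called with LINC00996 by edgeR or DESeq2, and 1 had an unadjusted p under 0.05. TFB2M stood at 0.32, PPARGC1A at -0.28 and TFB1M at 0.25, and 2 of the 13 were called higher and 1 lower without replicate 1. With AP001189.3 the coactivator PPARGC1A, at -0.61, and LRPPRC, at -0.29, were called lower. All these lower calls with AP001189.3 stand beside 8.49% of all genes.

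As a description over 9 libraries, the genes outside the 47 whose log2 CPM followed the median subunit most closely were LIG1, RANBP1, RPL10, FAM174A and TNFRSF1A, with Pearson's r of 0.98 to 0.99. All share with it their highest value in LINC00996 replicate 1. Within the 47 genes r with that median, of which subunits are themselves a part, was highest for NDUFB9, at 0.99, and it was 0.83 for NDUFB3, 0.79 for NDUFA1, -0.51 for NDUFAF4 and -0.91 for NDUFV2.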

How the data were processed

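RNA of A549 was extracted with Trizol, and libraries of poly(A)-selected RNA were read as pairs of 150 bases. The authors aligned reads with HISAT2 2.0.5 and made the deposited counts per gene with featureCounts 1.5.0-p3, on GRCh38 per the submitters' processing notes. The counts are whole and not normalized. The strand setting is not given in the sources used here, and reads shared by overlapping genes may be lost or misplaced. Coordinates of all 47 genes equalled GENCODE 29. FPKM values and the authors' own comparisons were not used.

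Each comparison of 2 groups was fitted on its 6 libraries with edgeR 4.0.16 in R 4.3.3 (filterByExpr, TMM, robust quasi-likelihood test, two-sided), with p adjusted by Benjamini-Hochberg over all genes tested and called under 0.05. CPM used TMM factors over the 9 libraries, and log2 CPM a prior count of 2. Per-library scores are medians over genes of log2 CPM minus the control mean. Alternatives were DESeq2 1.42.0, other scaling and filters, 1 fit over 9 libraries, a replicate block, offsets for gene length, transcript length and GC content, a fold threshold and leaving out each library.

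The genes and lists were chosen with earlier results of these data known. Values per library were given for the 12 genes of smallest adjusted p with LINC00996 against control, 6 in each other comparison, every gene called lower with LINC00996 against control, every assembly factor, NDUFA4 and NDUFA4L2. For each list the log2 differences of the 3 genes of smallest adjusted p with LINC00996 against control were given. Genes outside this rule were named after their values were seen. 1 of the 47 genes entered the fits and counts but is not reported here by itself. Library totals of 15272450 to 18125447 limit precision for genes of few counts.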

Additional observations from a re-analysis of the deposited data

How the results depend on the processing

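Of the genes called among the 47, 6 of 18 stayed called in every fit that left out 1 library with LINC00996 against control, 4 of 14 with AP001189.3 against control and 4 of 16 with LINC00996 against AP001189.3. The same was not counted over all called genes, so whether the 47 were more or less stable than others is not known. The counts that follow include genes never called. Over all alternatives with LINC00996 against control, 658 values for single genes kept direction and call, 43 lost the call, 32 gained it and 17 changed sign without a call. With AP001189.3 against control these numbers were 626, 63, 13 and 33, and with LINC00996 against AP001189.3 they were 629, 42, 64 and 14. No gene with a call changed sign. Of the medians, those of subunits and of short genes with AP001189.3 did so under the offsets for gene and transcript length, and that of subunits also without AP001189.3 replicate 1, at -0.0018. Offsets for transcript length and GC content and the split by transcript length were chosen after seeing the data, and the cause of each change was not tested.

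For LINC00996 against control, leaving out 1 library gave 1925 to 5481 genes called, 6 to 21 subunits higher, 0 to 1 subunit lower and 0 to 1 assembly factor lower. The median of short genes ranged from 0.21 to 0.72 and that of long genes from 0.20 to 0.34, lowest without LINC00996 replicate 1. The offset for GC content gave 6063 genes called. A log2 fold change of at least 1 left 759 genes, 3 subunits higher, 0 lower and 0 assembly factors higher.

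For AP001189.3 against control, leaving out 1 library gave 1914 to 3598 genes called, 5 to 8 subunits higher, 1 to 2 lower and 0 to 2 assembly factors lower. The fit of all 9 libraries gave 437 genes called, 2 subunits higher, 0 lower and 0 assembly factors lower, and DESeq2 gave 1 subunit and 0 assembly factors lower. The offsets for gene length and transcript length each gave 6 subunits lower, with subunit medians of -0.03 and -0.04, a median of -0.04 for short genes under both, and -0.11 for long genes under the latter. The offset for GC content gave 4 subunits and 1 assembly factor lower and a median of 0.04 for short genes. A log2 fold change of at least 1 left 158 genes, 0 subunits lower and 0 assembly factors lower, and 1 gene of the subunit names higher, NDUFA4L2, which is not a subunit of complex I and passed the filter on low counts only through the AP001189.3 libraries.

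For LINC00996 against AP001189.3, leaving out 1 library gave 1840 to 6828 genes called, 4 to 22 subunits higher, 0 to 1 lower and 1 to 3 assembly factors higher. The offset for GC content gave 6046 genes, 23 subunits higher and 3 assembly factors higher. Assembly factors higher numbered 3 with the offset for gene length and 2 with that for transcript length, with library size alone and with all 9 libraries in 1 fit. A log2 fold change of at least 1 left 666 genes, 0 subunits higher or lower and 0 assembly factors higher.

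Same-numbered libraries of different groups deviated together with r from -0.020 to 0.149, and not every library correlated best with its own number, so the numbers were not taken to pair libraries. With a replicate block 4500, 3466 and 3772 genes were called in the 3 comparisons, and 19, 10 and 18 subunits were called higher.

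For LINC00996 against control, 17 values of 9 genes changed sign, with no call before or after. Leaving out 1 library gave -0.18 to 0.06 for NDUFAB1, -0.03 to 0.17 for NDUFAF5, -0.12 to 0.83 for NDUFAF8, -0.05 to 0.41 for NDUFB1, -0.10 to 0.20 for NDUFB11, -0.03 to 0.20 for NDUFB5, -0.02 to 0.18 for NDUFC2, -0.14 to 0.0046 for NDUFS4 and -0.0015 to 0.28 for NDUFV3. NDUFB11 had -0.01 with the offset for gene length. NDUFB11 had -0.01 and NDUFB5 -0.06 with the offset for transcript length.

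For AP001189.3 against control, 33 values of 12 genes changed sign, with no call before or after. Leaving out 1 library gave -0.0018 to 0.15 for NDUFA12, -0.04 to 0.11 for NDUFAF3, -0.22 to 0.02 for NDUFAF5, -0.15 to 0.09 for NDUFB2, -0.02 to 0.04 for NDUFB9, -0.08 to 0.05 for NDUFS8, -0.16 to 0.07 for NDUFV2 and -0.07 to 0.04 for NDUFV3. NDUFA12 had -0.03, NDUFA8 -0.05, NDUFAF3 -0.05, NDUFB7 -0.04 and NDUFB9 -0.03 with the offset for gene length. NDUFA12 had -0.04, NDUFA8 -0.04, NDUFAF3 -0.03, NDUFB7 -0.04, NDUFB9 -0.11, NDUFS1 0.01 and NDUFV3 0.003 with the offset for transcript length. NDUFAF3 had -0.19, NDUFAF7 0.03, NDUFB2 0.0045, NDUFB7 -0.15, NDUFB9 -0.07 and NDUFS1 0.0018 with the offset for GC content. NDUFB9 had -0.0017 with DESeq2. NDUFB9 had -0.02 with library size alone.

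For LINC00996 against AP001189.3, 14 values of 6 genes changed sign, with no call before or after. Leaving out 1 library gave -0.03 to 0.48 for NDUFA3, -0.06 to 0.05 for NDUFA9, -0.11 to 0.14 for NDUFAF4, -0.02 to 0.26 for NDUFB11, -0.0011 to 0.14 for NDUFS4 and -0.35 to 0.41 for NDUFS7. NDUFA9 had 0.05 with library size alone. NDUFA9 had 0.04 with the offset for gene length. NDUFA9 had 0.05 with the offset for transcript length. NDUFAF4 had -0.04 with the offset for GC content. NDUFS7 had -0.01 with a replicate block.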
